A study of Mus musculus with 2 samples.

Results

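Naive T cells are held in their resting, recirculating state by a small group of transcription factors, and 9 of their genes are described here across T cell subsets and other lymphocytes of fibrotic mouse liver: Lef1, Tcf7, Satb1, Bach2, Bcl11b, Foxo1, Foxp1, Ets1 and Id3. They were chosen by symbol from the 55357 genes listed in both count matrices, and all 9 were found. Droplet single-cell RNA sequencing had been run on liver cells of mice given carbon tetrachloride (CCl4), a hepatotoxin used to induce fibrosis, either alone or together with IPA (indole propionic acid, which gut bacteria make from tryptophan). Each group is 1 library, the CCl4 library and the CCl4+IPA library, called the IPA library below; both carry CCl4, and neither an untreated liver nor IPA alone is among them. The number of mice behind each library, their strain, sex and age, and the doses and times of CCl4 and IPA, are not given in the sources used here. With no replicate, every comparison is between these libraries, or between cells inside a library, and not between treatments, and no test was run. Intervals in parentheses are exact 95% intervals that cover counting error only.

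LEF1 and TCF-1 (the product of Tcf7) are related HMG-box proteins that bind the same DNA element and keep naive and memory T cells able to self-renew. FOXO1 switches on the homing and survival genes of resting T cells, and FOXP1, BACH2 and SATB1 hold back activation or organise chromatin, while BCL11B and ETS1 belong to the general T cell programme and ID3 restrains E-protein transcription factors. When a naive T cell meets antigen and becomes an effector cell, the homing and quiescence genes are usually turned down and the factors of the effector lineages, such as T-bet, Blimp-1 and ID2, take over.

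Cells were assigned to gates by raw counts of unique molecular identifiers (UMIs) of marker genes, none of which is a member of the set. T cells carried at least 2 UMIs of CD3 genes and at most 1 of B cell or of myeloid markers. CD8 and CD4 T cells were then called naive-type if they had a UMI of a homing gene, such as Ccr7, and at most 1 UMI of 6 effector genes (Ccl5, Nkg7, Cxcr3, Cxcr6, S100a4 and Icos), memory-type if they had both, and effector-type if they had the effector genes alone. FOXO1 is known to drive homing genes, so these gates are not blind to the biology of the set. After filtering, 10016 and 10128 cells remained in the CCl4 and IPA libraries, with 42891409 and 35902750 UMIs and medians of 3153.5 and 2725 UMIs per cell, and 23 barcodes occurred in both libraries. T cell gates held 25.1% of the cells with CCl4 alone (2516) and 30.7% of those with IPA (3114). Where a pair of values is given, the CCl4 library comes first. Naive-type cells made up 10.3% (128 of 1243, 8.66 to 12.1) and 10.52% (149 of 1416, 8.97 to 12.2) of CD8 T cells. Among CD4 T cells they made up 32.6% (101 of 310, 27.4 to 38.1) and 37.9% (150 of 396, 33.1 to 42.9). The independent T cell markers Trac, Trbc1, Trbc2, Cd2, Lat and Thy1 summed to 2646 and 3079 CPM (UMIs of the gene scaled to 1000000 UMIs of the gate) in CD8 naive-type cells, against 29.5 and 63.6 CPM in neutrophils. Levels were compared in the 19 of 22 gates that held at least 50 cells in each library, of which 10 are T cell gates.

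**Figure D1:**
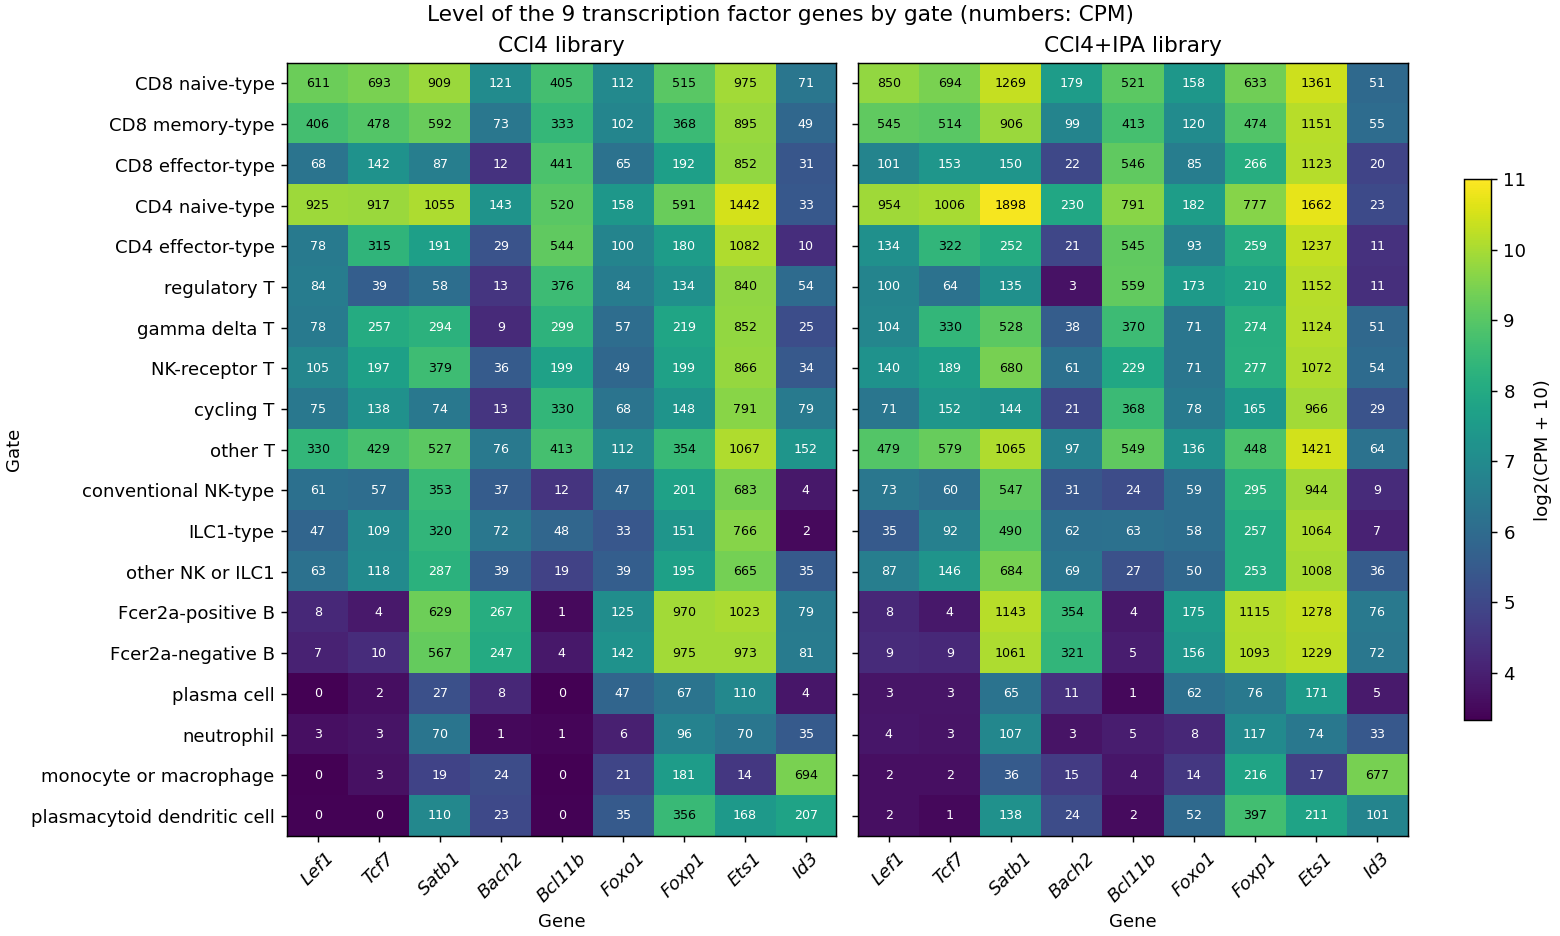
Level of each of the 9 genes (columns) in each of the 19 gates (rows), in the CCl4 library (left) and the IPA library (right); the number in a cell is CPM and the colour is log2(CPM + 10). Lef1 and Tcf7 are highest in the naive-type rows and near 0 in the B cell rows, where Satb1, Bach2, Foxp1 and Ets1 remain high, and Id3 is highest in the monocyte or macrophage row.

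In CD8 T cells 7 of the 9 genes were at least 1.5-fold higher in naive-type than in effector-type cells in each library, while 11.3% of 9184 and 11.7% of 9363 measured genes passed the same fold. In CD4 T cells 6 of 8 measured genes did so in each library, against 9.97% of 5548 and 12.2% of 6177 genes. Id3 had fewer than 20 UMIs over the CD4 gates and was not counted there. The set was named for naive T cells, so this direction is a description of it. Its members were unequal, and they are given in groups made after the values had been seen. These are a steep group (Lef1, Satb1, Bach2 and Tcf7), a graded group (Foxp1, Foxo1 and Id3) and a pair (Bcl11b and Ets1). The pair had ratios under 1.5 with all genes in the total.

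**Figure D2:**
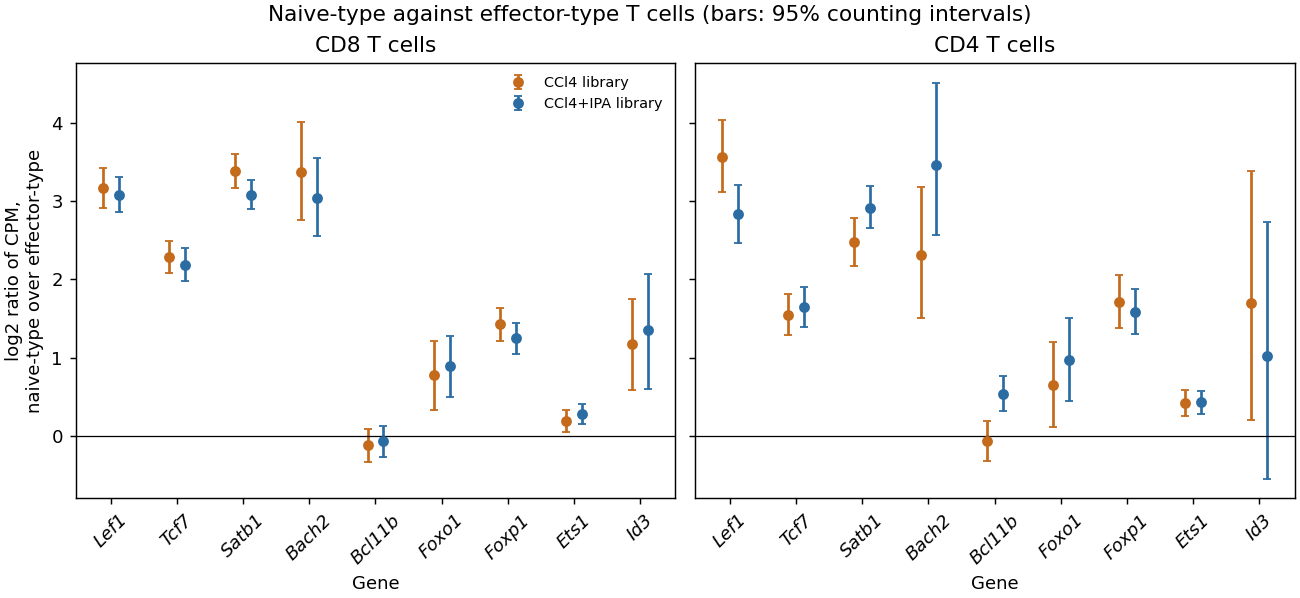
Log2 ratio of CPM in naive-type over effector-type cells for each gene, in CD8 (left) and CD4 (right) T cells; orange points are the CCl4 library, blue points the IPA library and bars 95% counting intervals. Lef1, Satb1 and Bach2 lie highest, Bcl11b and Ets1 lie closer to 0, with Bcl11b in CD4 T cells of the IPA library at a ratio of 1.45, and the CD4 points of Id3 rest on fewer than 20 UMIs.

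Lef1 stood at 611 CPM (545 to 683) and 850 CPM (769 to 938) in CD8 naive-type cells. In CD8 effector-type cells it was at 68.3 and 101 CPM, so that naive-type cells were 8.95-fold (7.49 to 10.7) and 8.44-fold (7.23 to 9.86) higher. CD4 naive-type cells held the most Lef1 of the 19 gates, 925 and 954 CPM, against 78.3 and 134 CPM in CD4 effector-type cells, a ratio of 11.8 (8.68 to 16.4) and 7.098 (5.52 to 9.25). Naive-type and effector-type intervals do not meet in either library, and the CD4 and CD8 ratios overlap.

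Tcf7 was less steep than Lef1. Its level was 693 and 694 CPM in CD8 naive-type cells and 142 and 153 CPM in effector-type cells, ratios of 4.88 (4.23 to 5.63) and 4.55 (3.93 to 5.27). CD4 effector-type cells kept more of it, 315 and 322 CPM against 917 and 1006 CPM in naive-type cells, so the CD4 ratios were 2.91 (2.43 to 3.499) and 3.13 (2.62 to 3.75). The CD4 and CD8 intervals of Tcf7 do not meet in either library.

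Satb1, which anchors chromatin loops in developing and resting T cells, was as steep as Lef1 in CD8 T cells. It stood at 909 and 1269 CPM in naive-type and 87.1 and 150.1 CPM in effector-type CD8 cells, ratios of 10.4 (8.95 to 12.2) and 8.46 (7.45 to 9.60). In CD4 T cells the levels were 1055 and 1898 CPM against 191 and 252 CPM, ratios of 5.54 (4.48 to 6.88) and 7.54 (6.28 to 9.11). Bach2, a repressor that restrains effector differentiation, stood at 121 and 179 CPM in CD8 naive-type cells and 11.7 and 21.8 CPM in effector-type cells. Its CD8 ratios were 10.4 (6.77 to 16.1) and 8.23 (5.85 to 11.6), and its CD4 ratios were 4.93 (2.83 to 9.06) and 11.03 (5.93 to 22.7), the last resting on 11 UMIs in effector-type cells.

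The promoter sequences of this steep group are shown because these genes had the highest naive-type over effector-type ratios in CD8 T cells. The 250 bases before each start that RefSeq annotates on GRCm38.p6 were read for 8 of the 9 genes, 18 windows in all. Each window was searched on both strands for 6 short words: CTTTGAA and CTTTGAT, which TCF and LEF proteins bind, TGTTTAC, bound by forkhead factors, CCGGAAG and CAGGAAG, bound by ETS factors, and TGTGGTT, bound by RUNX factors. For 5 of the starts the 100 bases nearest to the start are printed below, with any such word in capitals, a choice made after the matches were known. GENCODE vM21 annotates no exon of the gene in them. It annotates none either in those bases of Lef1 starts 2 and 3 and Tcf7 start 1, which hold no such word and are not printed. Exons of RefSeq, from which the starts come, were not checked, so no window is called free of exons.
Lef1, start 1, chr3:131110197-131110296, plus strand: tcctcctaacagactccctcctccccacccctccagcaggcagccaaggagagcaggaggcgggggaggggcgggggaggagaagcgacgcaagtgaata
Lef1, start 4, chr3:131156194-131156293, plus strand: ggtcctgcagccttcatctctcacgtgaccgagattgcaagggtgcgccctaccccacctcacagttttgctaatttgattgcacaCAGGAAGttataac
Tcf7, start 2, chr11:52282596-52282695, minus strand: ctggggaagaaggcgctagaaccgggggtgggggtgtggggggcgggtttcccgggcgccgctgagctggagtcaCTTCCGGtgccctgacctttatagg
Satb1, start 1, chr17:51833291-51833390, minus strand: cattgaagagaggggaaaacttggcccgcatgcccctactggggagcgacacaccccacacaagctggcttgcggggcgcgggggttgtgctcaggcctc
Bach2, start 1, chr4:32417335-32417434, plus strand: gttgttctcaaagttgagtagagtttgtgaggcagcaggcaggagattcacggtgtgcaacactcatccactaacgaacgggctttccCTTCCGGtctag
The Tcf7 and Bach2 windows carry the ETS word CCGGAAG, here on the opposite strand as CTTCCGG, which 6.91% of all 32851 promoter windows hold. Start 4 of Lef1 carries CAGGAAG, as do windows of Satb1 and Foxp1, and 10.8% of all windows hold it. The Satb1 window with it is start 3, where all 250 bases are annotated as exon, as they are for Satb1 starts 4 and 5 and Id3. The TCF and LEF word CTTTGAA was found in windows of Bcl11b and Foxp1 alone (4.46% of all windows), and CTTTGAT (3.21%), TGTTTAC (3.17%) and TGTGGTT (4.40%) were found in none of the 18. In the Bcl11b window 188 of the 250 bases are annotated as exon. A match describes letters in a window and not a bound site, and enhancers were not read. Ets1 is not in the promoter table.

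Among the graded genes, Foxp1, which enforces quiescence in naive T cells, stood at 515 and 633 CPM in CD8 naive-type cells and at 192 and 266 CPM in effector-type cells. The CD8 ratios were 2.68 (2.31 to 3.10) and 2.38 (2.07 to 2.73), and the CD4 ratios were 3.28 (2.59 to 4.17) and 2.99 (2.46 to 3.67). Foxo1, whose protein is regulated largely by its exclusion from the nucleus, stood at 112 and 158 CPM against 65.0 and 85.1 CPM in CD8 T cells, ratios of 1.72 (1.26 to 2.31) and 1.86 (1.41 to 2.42). In CD4 T cells its ratios were 1.57 (1.08 to 2.29) and 1.96 (1.36 to 2.84). Id3 had 36 and 24 UMIs in CD8 naive-type cells, 70.5 and 51.3 CPM, and was 2.26-fold (1.495 to 3.35) and 2.56-fold (1.52 to 4.203) higher there than in effector-type cells. Effector-type cells held 31.2 and 20.0 CPM of Id3, or 21.8 and 18.5 CPM without the cells that carried a stromal UMI.

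Bcl11b and Ets1 did not separate the 2 states in the same way. Bcl11b, which commits thymocytes to the T lineage, was at 405 and 521 CPM in CD8 naive-type cells and at 441 and 546 CPM in effector-type cells, ratios of 0.919 (0.790 to 1.06) and 0.954 (0.830 to 1.09). Those intervals include 1, and when mitochondrial, ribosomal protein and rRNA genes are left out of the total the log2 ratio passes from −0.12 and −0.07 to 0.20 and 0.22. In CD4 T cells the Bcl11b ratio was 0.955 (0.797 to 1.14), and 1.45 (1.24 to 1.70), the second interval lying above 1, with log2 ratios of 0.21 and 0.79 under the other total. Ets1, an ETS-family factor of T, B and NK cells, stood at 852 and 1123 CPM in CD8 effector-type cells. Its naive-type over effector-type ratios ran from 1.14 to 1.34 over lineages and libraries. The naive-type and effector-type CPM intervals of Ets1 did not meet in any of these. Ribosomal protein genes took 32.3% and 31.6% of UMIs in CD8 naive-type cells, against 20.4% and 18.3% in effector-type cells. Ets1 ratios under the other total are not given here.

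Cells with both homing and effector transcripts lay between the extremes for the steep group. This gate asks for UMIs of both kinds, and its CD8 cells were deeper, at medians of 5098 and 3999 UMIs. The medians were 4084 and 3063 in naive-type and 3781 and 3140 in effector-type cells. Whether the gate mixes cells of both states was not tested. In CD8 memory-type cells Lef1 stood at 406 and 545 CPM, Tcf7 at 478 and 514 CPM, Satb1 at 592 and 906 CPM and Bach2 at 72.5 and 99.5 CPM. Naive-type cells were above them by 1.504-fold (1.31 to 1.72) and 1.56-fold (1.38 to 1.76) for Lef1, and by 1.67-fold (1.22 to 2.28) and 1.80-fold (1.37 to 2.35) for Bach2. Against effector-type cells, memory-type cells were higher for Lef1 by 5.95-fold (5.10 to 6.97) and 5.41-fold (4.73 to 6.20), a wider gap than that between naive-type and memory-type cells. Bcl11b was lower in memory-type than in effector-type cells in both libraries, at a ratio of 0.755 (0.685 to 0.833) and 0.755 (0.690 to 0.826). CD4 memory-type cells numbered 44 in the CCl4 library and were not compared; in the IPA library they held 739 CPM of Lef1, 932 CPM of Tcf7 and 1333 CPM of Satb1.

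Differences in depth between cells were removed by thinning each cell to 2000 UMIs. Lef1 was then detected in 74.8% (65.8 to 82.4) and 72.7% (64.3 to 80.1) of CD8 naive-type cells, against 12.2% (9.93 to 14.8) and 17.7% (15.03 to 20.5) of effector-type cells. The shares before thinning were 90.6% and 85.2% against 20.6% and 25.8%. Thinning left out 13 of 128 and 17 of 149 naive-type cells and 47 of 775 and 74 of 850 effector-type cells as too shallow. In neutrophils, which should lack Lef1, the thinned share was 0.402% and 1.52%, at median depths of 2279 and 1728.5 UMIs against 4084 and 3063 in CD8 naive-type cells. Tcf7 followed, with 76.5% and 70.5% of naive-type and 18.8% and 22.9% of effector-type CD8 cells. Bcl11b was detected in 58.3% and 63.6% of naive-type and in 56.9% and 61.5% of effector-type cells, as even per cell as in the summed counts.

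Lef1 and Tcf7 were found together in 60.9% (70 of 115) and 50.0% (66 of 132) of thinned CD8 naive-type cells, and in 3.02% (22 of 728) and 5.28% (41 of 776) of effector-type cells. Among CD4 naive-type cells 66.7% and 67.9% held both. Counted over the whole set, a thinned CD8 naive-type cell showed a mean of 4.72 and 5.12 of the 9 genes, and a CD4 naive-type cell 5.03 and 5.81. CD8 effector-type cells showed a mean of 2.28 and 2.68, regulatory T cells 1.95 and 2.43, and neutrophils 0.412 and 0.473. No naive-type cell of either lineage or library was without any of the 9 genes, compared with 28 of 728 and 11 of 776 CD8 effector-type cells.

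**Figure D3:**
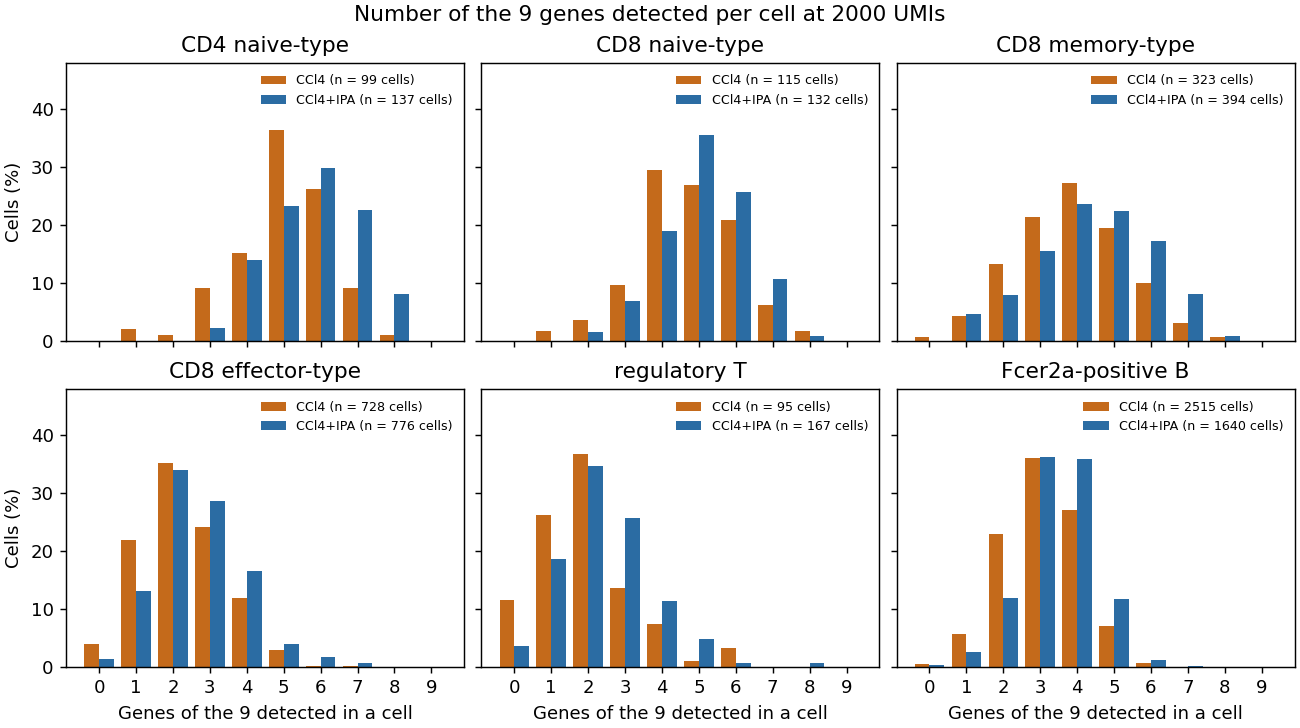
Percentage of cells (vertical axis) by the number of the 9 genes detected after thinning to 2000 UMIs (horizontal axis), in 6 gates; orange bars are the CCl4 library and blue bars the IPA library. The median is 5 or 6 genes in naive-type cells and 2 or 3 in CD8 effector-type and regulatory T cells.

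CD4 naive-type cells carried more of several members than CD8 naive-type cells. Tcf7 was 1.32-fold (1.14 to 1.54) and 1.45-fold (1.26 to 1.67) higher, Bcl11b 1.28-fold (1.05 to 1.56) and 1.52-fold (1.29 to 1.79) higher, and Ets1 1.48-fold (1.31 to 1.67) and 1.22-fold (1.10 to 1.36) higher. Lef1 was 1.51-fold (1.30 to 1.77) and 1.12-fold (0.979 to 1.29) higher, the second interval including 1. Id3 went the other way, at 0.470 (0.229 to 0.907) and 0.448 (0.198 to 0.9497) of the CD8 level, from 13 and 11 UMIs in CD4 naive-type cells. Satb1 was 1.16-fold (1.01 to 1.33) and 1.495-fold (1.35 to 1.66) higher in CD4 naive-type cells.

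Regulatory T cells, gated by Foxp3, held the lowest Tcf7 of the compared T cell gates in both libraries. Their Satb1 level, 58.3 CPM (38.4 to 84.8) and 135 CPM (109 to 167), was the lowest as well, but its intervals meet those of cycling T cells and CD8 effector-type cells in both libraries. Tcf7 stood at 38.9 CPM (23.0 to 61.4) and 63.9 CPM (46.1 to 86.4). CD4 naive-type cells were above them by 23.6-fold (14.7 to 40.3) and 15.7-fold (11.5 to 22.1) for Tcf7, and by 18.1-fold (12.3 to 27.8) and 14.0-fold (11.3 to 17.6) for Satb1. Lef1 was less depleted, at 84.2 and 100.4 CPM, and naive-type cells exceeded it by 10.98-fold (7.88 to 15.7) and 9.50-fold (7.33 to 12.5). Bach2 was represented by 6 and 2 UMIs in regulatory T cells. Bcl11b remained at 376 and 559 CPM and Ets1 at 840 and 1152 CPM, and CD4 naive-type cells exceeded them by 1.38-fold and 1.42-fold for Bcl11b and by 1.72-fold and 1.44-fold for Ets1.

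Other T cell gates kept parts of the set. Gamma delta T cells, gated by Trdc, held Satb1 at 294 and 528 CPM and Tcf7 at 257 and 330 CPM, above CD8 effector-type cells by 3.37-fold (2.76 to 4.11) and 3.51-fold (2.96 to 4.16) for Satb1 and by 1.81-fold (1.49 to 2.19) and 2.16-fold (1.76 to 2.64) for Tcf7. Lef1 in gamma delta T cells, 78.4 and 104 CPM, did not differ from CD8 effector-type cells beyond counting error (ratios of 1.15, 0.810 to 1.59, and 1.03, 0.725 to 1.44). T cells with NK receptors held Satb1 at 379 and 680 CPM. Their Lef1 stood at 105 CPM (80.8 to 135) and 140 CPM (116 to 169). Those intervals lay above the CD8 effector-type ones, 59.4 to 78.2 and 89.4 to 113 CPM. Cycling T cells were low in the steep genes, with Lef1 at 74.9 and 70.9 CPM and Satb1 at 74.2 and 144 CPM, and held Bcl11b at 330 and 368 CPM.

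In NK cells and type 1 innate lymphoid cells (ILC1), which lack a T cell receptor, Satb1 and Ets1 stayed high and Bcl11b was low. Satb1 stood at 353 and 547 CPM in conventional NK-type cells and 320 and 490 CPM in ILC1-type cells, above the CD8 effector-type level in each library. Bcl11b was at 12.4 and 24.3 CPM in conventional NK-type and 48.3 and 62.6 CPM in ILC1-type cells, a ratio of 0.257 (0.108 to 0.554) and 0.387 (0.236 to 0.612). Tcf7 and Bach2 were also lower in conventional NK-type cells: 56.7 and 59.6 against 109 and 92.3 CPM for Tcf7, at ratios of 0.519 (0.344 to 0.775) and 0.646 (0.468 to 0.883), and ratios of 0.521 (0.311 to 0.855) and 0.506 (0.325 to 0.767) for Bach2. Lef1 pointed the other way, 1.30-fold (0.800 to 2.14) and 2.08-fold (1.43 to 3.03) higher in conventional NK-type cells, past counting error in the IPA library alone. Id3 had 3 and 9 UMIs in conventional NK-type cells and 1 and 10 in ILC1-type cells, and no ratio is read from them.

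B cells separated the set into a part found mainly in T cells and a part that B cells shared. In B cells with Fcer2a (CD23), a marker of mature follicular B cells, Lef1 was at 8.42 and 8.25 CPM, Tcf7 at 4.50 and 3.95 CPM and Bcl11b at 1.38 and 3.95 CPM. Satb1 in the same cells reached 629 and 1143 CPM, Ets1 1023 and 1278 CPM, Foxp1 970 and 1115 CPM and Bach2 267 and 354 CPM. Bach2 and Foxp1 were higher in both B cell gates than in any T cell gate of the same library; BACH2 is known to delay plasma cell differentiation by repressing Prdm1. In plasma cells Bach2 was at 8.16 and 11.5 CPM, Satb1 at 26.7 and 65.3 CPM and Foxp1 at 67.5 and 75.7 CPM. Of all UMIs of Lef1, Tcf7 and Bcl11b, between 83.4% and 89.1% lay in T cell gates, whereas 71.6% and 68.2% of Bach2 and 59.8% and 52.4% of Foxp1 UMIs lay in B cell gates.

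Id3 differed from the other 8 genes. Its highest level was in monocytes or macrophages, at 694 CPM (656 to 733) and 677 CPM (622 to 737), followed by plasmacytoid dendritic cells at 207 and 101 CPM, and 8.09% and 10.46% of its UMIs lay in T cell gates. Another 57.6% and 55.1% lay in cells outside all gates. In some T cell gates Id3 rested on a few cells that also carried UMIs of the stromal genes Col1a1, Col1a2, Dcn or Rgs5. In cycling T cells of the CCl4 library 95 of 117 Id3 UMIs came from 5 such cells, and in the gate of other T cells 175 of 234 came from 25 cells. Regulatory T cells of that library had 15 of 25 Id3 UMIs in 4 such cells. The stromal genes summed to between 0 and 303 CPM and between 0 and 254 CPM over the 13 T cell gates of each library, and the part of those cells in the Id3 values was tested only by leaving them out. CD8 naive-type cells of the CCl4 library held no stromal UMI. In the IPA library 4 such cells held one, and 0 of the 24 Id3 UMIs lay in them.

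The order of the gates was compared over 38 points, 19 gates in each of the 2 libraries, as Pearson's r of log2(CPM + 10), a description over gates that share libraries and depth. Lef1 and Tcf7 ran closest together (r = 0.957), then Bcl11b with Tcf7 (0.893) and Bach2 with Foxp1 (0.883). Id3 had no r above 0.318 with any other member. Among 10199 other genes, those most like Lef1 were Slc12a7, Bicdl1 and Ikbke (r from 0.919 to 0.929), and those near Tcf7 included Prkcq (0.935), which encodes a kinase that acts downstream of the T cell receptor, and Fam78a (0.921). Bcl11b was nearest to Lat (0.983), the adaptor of T cell receptor signalling, with Camk4 (0.942) and Gstp3 (0.941). Ets1 was nearest to Ablim1 (0.977), Gimap6 (0.951) and Gimap1 (0.939). Bach2 and Foxp1 shared Aff3 (0.859 and 0.912) and Pecam1 (0.851 and 0.859) as their nearest genes. For Foxo1 they were Rhoh (0.894), Tmem245 (0.893) and S1pr1 (0.890), a lymphocyte egress receptor, and for Id3 they were Fcgrt (0.829), Tep1 (0.808) and Zfp385a (0.789).

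Other genes of the naive T cell programme and the factors of the effector lineages were set beside the members. Of 15 measured genes of the naive list, 13 were at least 1.5-fold higher in CD8 naive-type than effector-type cells in each library, with a median log2 ratio of 1.88 and 2.18, against −0.28 and −0.25 over all genes. Dapl1, a marker of naive CD8 T cells, was 77.3-fold (47.8 to 133) and 46.1-fold (31.6 to 69.4) higher, and Cd27, a costimulatory receptor, was the lowest of the list at 0.665 (0.493 to 0.882) and 0.765 (0.599 to 0.965). Of 14 measured effector lineage factors, 13 were at least 1.5-fold lower in each library, with medians of −3.01 and −2.49, where 33.7% and 32.0% of all measured genes were that much lower. Both lists were picked for the states that the gates separate by homing and effector genes, so these directions are descriptions. Zeb2, which drives terminal effector cells, had 1 and 4 UMIs in CD8 naive-type cells against 665 and 1010 in effector-type cells, and Runx3, which CD8 T cells use throughout, was the remaining factor at ratios of 0.696 (0.571 to 0.841) and 0.701 (0.577 to 0.847). Id2, the paralog of Id3 that is known for effector cells, stood at 135 and 197 CPM in CD8 naive-type and 996 and 1061 CPM in effector-type cells, opposite in direction to Id3. Of 13 measured partners of the set, 0 were past 1.5-fold higher in either library and 6 and 4 were past 1.5-fold lower, which against those shares of all genes is not read as a result. Runx1, a partner in naive T cell gene control, was at 0.264 (0.158 to 0.418) and 0.463 (0.318 to 0.654), and the ETS-family gene Elf1 at 1.12 (0.929 to 1.33) and 1.31 (1.12 to 1.52). Of the paralogs, 1 of 7 and 2 of 6 measured were past 1.5-fold higher, where 11.3% and 11.7% of all genes were. Past 1.5-fold lower were 2 and 3, and the median log2 ratios were 0.09 and −0.39. With so few genes these counts are not read as a result. Foxo4, a relative of Foxo1, had a ratio of 1.47 (0.656 to 2.98) and 2.09 (1.21 to 3.49), and Ets2 had 1.33 (0.622 to 2.58) and 2.12 (1.25 to 3.45), from 10 to 23 UMIs in naive-type cells. Of 12 immediate early genes, which tissue dissociation is known to induce, 0 were past 1.5-fold higher, and the 3 and 4 past 1.5-fold lower are again near the 33.7% and 32.0% of all genes.

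Between the libraries the set did not move as a block. All genes together were shifted: in T cell gates the median gene stood 0.19 to 0.28 higher on the log2 scale in the IPA library, and 0.0035 to 0.060 higher when mitochondrial, ribosomal protein and rRNA genes were left out of the total. The CCl4 library gave 6.67% to 9.55% of its T cell UMIs to the 18S rRNA gene Rn18s-rs5, the IPA library 1.08% to 1.61%, and mitochondrial UMIs reached 4.24% against 2.30%. In CD8 naive-type cells 0 of 9 members were at least 1.5-fold higher in the IPA library, where 26.3% of all genes were. Past that fold were 3 of 9 in CD4 naive-type cells (25.7% of all genes), 2 of 9 in CD8 effector-type cells (18.9%) and 1 of 8 in CD4 effector-type cells (22.2%). In regulatory T cells 4 of 8 were past it (27.5%), in conventional NK-type cells 2 of 8 (19.8%), and in Fcer2a-positive B cells 2 of 9 (16.7%). With 8 or 9 genes in a gate, a share of this size is not read as a result about the set. With the all-gene median subtracted, 2 of the 8 were past the fold in regulatory T cells.

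**Figure D4:**
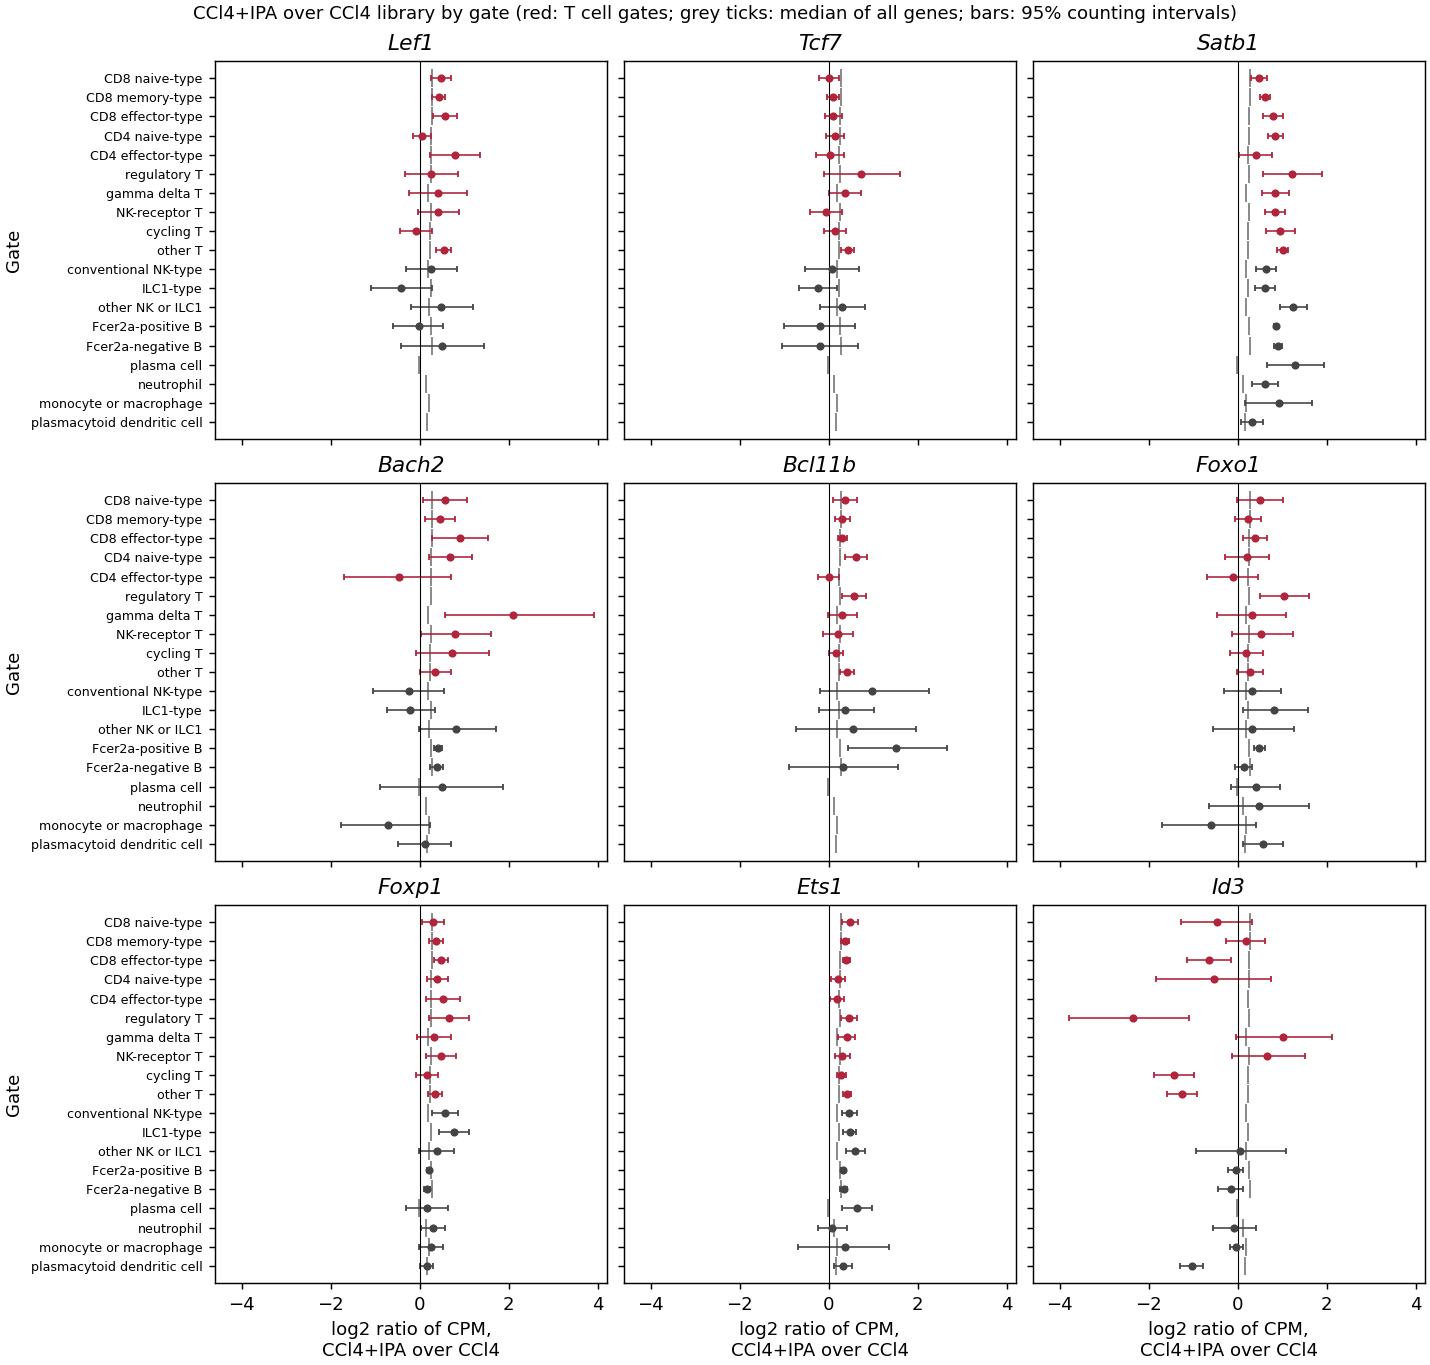
Log2 ratio of CPM in the IPA library over the CCl4 library for each gene (panels) and gate (rows); red points are T cell gates, dark points other gates, bars 95% counting intervals and grey ticks the median of all genes in that gate, and genes with fewer than 20 UMIs are not drawn. The Satb1 points lie to the right of 0 and of the grey tick in all 19 gates, the T cell points of Tcf7 have a median of 1.09 as a ratio, and Id3 spreads to both sides.

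Satb1 stood higher in the IPA library in every one of the 19 gates, with ratios from 1.25 to 2.45 and a median of 1.79, each interval above 1 and each value above the all-gene median of its gate. In CD4 naive-type cells it stood at 1055 CPM (414 UMIs) and 1898 CPM (909 UMIs), 1.80-fold (1.60 to 2.03) higher, and in Fcer2a-positive B cells at 629 and 1143 CPM, 1.82-fold (1.75 to 1.88) higher. In CD8 naive-type cells it was 1.40-fold (1.23 to 1.58) higher, where 33.2% of all genes had a higher ratio still; that share was 6.53% in Fcer2a-positive B cells and 2.22% in plasma cells. In regulatory T cells the ratio was 2.32 (1.495 to 3.72) from 27 and 89 UMIs, a log2 ratio of 1.22 that was 0.46 when every cell weighed the same. Ets1 and Foxp1 were also higher in all 19 gates, by medians of 1.29-fold and 1.26-fold, but with intervals above 1 in 17 and 14 of them. Ets1 lay above the all-gene median in 16 of these gates and Foxp1 in 15. Ets1 lay below it in CD4 naive-type cells, CD4 effector-type cells and neutrophils, and Foxp1 in cycling T cells, both B cell gates and plasmacytoid dendritic cells. Lef1 was past the 1.5-fold mark only in CD4 effector-type cells (1.72, 1.17 to 2.55, from 46 and 71 UMIs) among the 15 gates where it was measured.

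Tcf7 had a median ratio of 1.09 over the 10 T cell gates. The interval lay above 1 in other T cells (1.35, 1.22 to 1.49) and gamma delta T cells (1.29, 1.01 to 1.64), and included 1 in the other 8, among them regulatory T cells (1.64, 0.926 to 3.03). It stood at 693 and 694 CPM in CD8 naive-type cells (1.00, 0.859 to 1.17) and at 917 and 1006 CPM in CD4 naive-type cells (1.10, 0.955 to 1.26). Relative to the median gene this is −0.27 and −0.13 on the log2 scale, so its side of 0 depends on the scaling; it was above the all-gene median in 3 of the 10 gates. Lef1 and Tcf7, which followed each other across gates, therefore had different values between libraries in CD8 naive-type cells (1.39, 1.20 to 1.62, for Lef1), a difference between members that was not tested. Bach2 had a median ratio of 1.61 over the 9 T cell gates where it was measured, with the largest value, 4.27 (1.48 to 15.02), from 5 and 15 UMIs in gamma delta T cells.

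Id3 was higher in the IPA library in 3 of the 9 T cell gates where it was measured, each with an interval that included 1. It was lower in the others, with an interval below 1 in 4 of them: CD8 effector-type, regulatory, cycling and other T cells. Values moved when cells with stromal UMIs were left out. In cycling T cells the ratio was 0.371 (0.271 to 0.506) over all cells and 1.91 (1.16 to 3.24) without the cells that held a stromal UMI. In CD8 memory-type cells it went from 1.13 (0.840 to 1.53) to 0.627 (0.434 to 0.898), and in other T cells from 0.423 (0.333 to 0.535) to 0.575 (0.372 to 0.879). In CD8 effector-type cells it went from 0.641 (0.453 to 0.901) to 0.849 (0.577 to 1.24), an interval that includes 1. Regulatory T cells, at 0.197 (0.0721 to 0.469) over all cells, kept too few UMIs for a ratio without the cells that held a stromal UMI. Of the 4 gates, only other T cells therefore kept an interval below 1. Outside T cells, plasmacytoid dendritic cells had 207 and 101 CPM, a ratio of 0.488 (0.409 to 0.581) that stayed at 0.507 (0.421 to 0.607) without such cells, and monocytes or macrophages were level at 0.976 (0.881 to 1.08).

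The Satb1 values carry a limit of annotation. Gene models without known function lie inside Satb1 on the same strand, and 5 of them were counted as separate genes in T cells: C230085N15Rik, E430014B02Rik, 5830444F18Rik, Gm37248 and Gm36931, of which Gm36931 alone overlaps a Satb1 exon. Reads of Satb1 RNA and of these models cannot be told apart with certainty. Models named only by a Gm number were not ranked for likeness, and 5830444F18Rik (r = 0.980), C230085N15Rik (0.965) and E430014B02Rik (0.934), were the 3 genes most like Satb1. Pooled over all T cell gates, Satb1 was 1.70-fold (1.63 to 1.76) higher in the IPA library (3830 and 7017 UMIs), and the models were 1.78-fold to 2.29-fold higher. Models inside other members were higher too: Gm38034 in Foxo1 by 2.22-fold (1.93 to 2.57), where Foxo1 was at 1.28 (1.18 to 1.39), Bach2it1 in Bach2 by 2.56-fold (1.62 to 4.18), and Gm42449 in Lef1 by 1.40-fold (1.23 to 1.60), where Lef1 was at 1.31 (1.24 to 1.38). Over the same T cells the median ratio was 1.46 for 794 models of the TEC class, which await experimental support, 1.55 for 109 sense-intronic models and 1.20 for 11412 protein-coding genes, and 47.6%, 55.0% and 13.3% of them were at least 1.5-fold higher. Their part in the Satb1 difference was not tested.

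**Figure D5:**
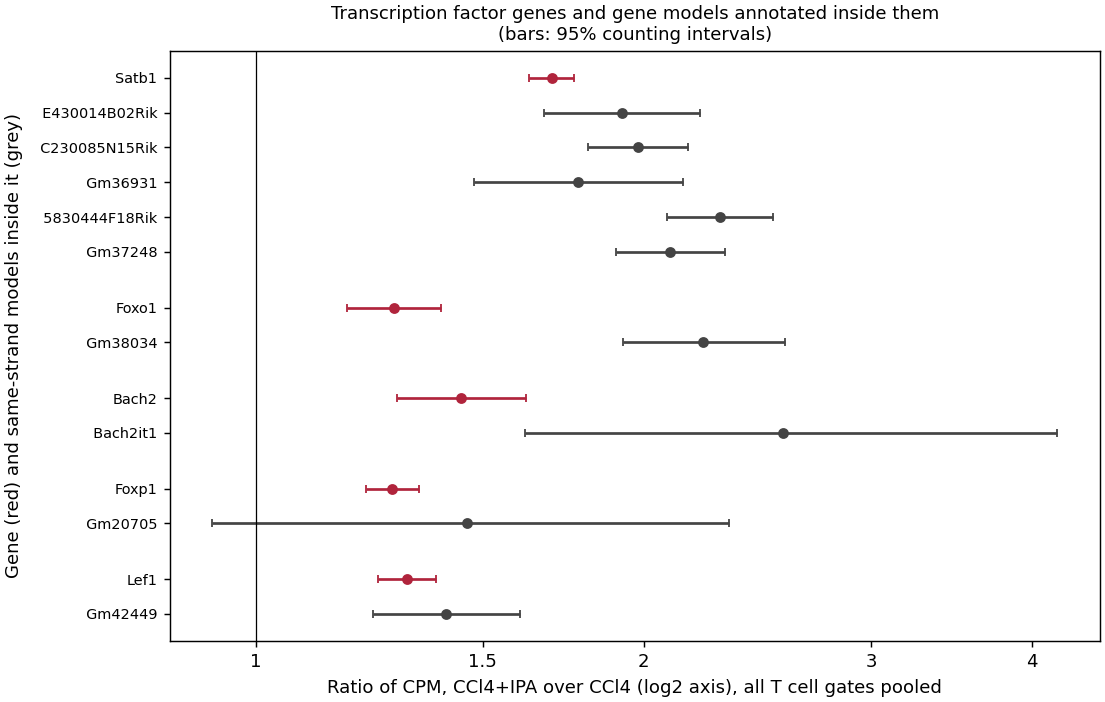
Ratio of CPM in the IPA library over the CCl4 library, pooled over all T cell gates (log2 axis), for 5 members (red) and the same-strand gene models annotated inside them (grey); bars are 95% counting intervals. The models inside Satb1 lie between 1.78 and 2.29, above Satb1 itself at 1.70, and the model inside Foxo1 lies above Foxo1.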

How the data were processed

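The deposited values are UMI counts for each pairing of gene and barcode. Per the file headers they come from Cell Ranger 7.1.0. The build mm9 is named in the submitters' processing notes, while the gene models used here to place genes inside others are GENCODE vM21 on GRCm38, so no coordinate of the count data is given. Intron counting and barcode calling are not given in the sources used here. Barcodes with at least 500 UMIs, 300 genes and under 20% mitochondrial UMIs were kept (10294 of 10427 and 10459 of 10471), and Scrublet, run per library in scanpy 1.11.5, removed 278 and 331 as doublets. Summed UMIs of each gate were scaled to CPM. CPM has Poisson, ratios conditional binomial and shares Clopper-Pearson intervals, all exact at 95%. A gene was compared with at least 20 UMIs over both sides and a gate with at least 50 cells per library; a side at 0 was set to 3 UMIs. Ratio code was tested on simulated data. Members, gates and lists were chosen with earlier results of these data known. Named genes are the members, their 3 most alike genes (200 UMIs or more), the paralogs, and up to 4 genes per list with the largest and smallest ratios. One gate marker and one alike gene are not reported here. Leaving out cells with stromal UMIs and barcodes found in both libraries was added after seeing the data. Python 3.11.15, numpy 2.4.6, scipy 1.17.1 and pandas 2.3.3 were used.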

Additional observations from a re-analysis of the deposited data

How the results depend on the processing

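No paired analysis was possible because each group is 1 library; for the same reason no replicate could be left out. The counts of members past 1.5-fold between naive-type and effector-type cells (7, 7, 6 and 6) did not move by more than 1.5 times under any alternative run. A rise from 6 to all 8 measured genes would also stay within that limit, so single genes could cross the fold. Bcl11b in CD4 T cells of the IPA library did so without mitochondrial, ribosomal protein and rRNA genes in the total (log2 ratio 0.79). Of 106 counts recomputed under an alternative, 91 stayed within 1.5 times and 15 did not, all of them counts of members higher in the IPA library. In CD8 naive-type cells that count went from 0 to 1 with at least 3 CD3 UMIs, with mitochondrial shares under 10% or with cells of at least 2000 UMIs, and to 2 with naive-type cells free of effector UMIs. With scaling that leaves out mitochondrial, ribosomal protein and rRNA genes, and equally with the all-gene median subtracted, it went from 2 to 1 in CD8 effector-type, from 3 to 1 in CD4 naive-type, from 1 to 0 in CD4 effector-type, from 4 to 2 in regulatory T and from 2 to 1 in conventional NK-type cells. In CD4 effector-type cells it went to 2 with cells of at least 2000 UMIs. Under those scalings log2 ratios between libraries whose counting interval excluded 0 turned negative for Ets1 in CD4 naive-type (−0.014 and −0.056) and CD4 effector-type cells (−0.0032 and −0.048), and for Foxp1 in Fcer2a-positive B cells (−0.012 and −0.056). Other ratios crossed 0 under both scalings from an interval that included it: Tcf7 in CD8 naive-type (−0.26 and −0.27), CD8 effector-type (−0.12 and −0.16), CD4 naive-type (−0.085 and −0.13), CD4 effector-type (−0.16 and −0.21) and conventional NK-type cells (−0.084 and −0.12), Lef1 (−0.17 and −0.22) and Foxo1 (−0.018 and −0.059) in CD4 naive-type cells, and Bcl11b in CD4 effector-type cells (−0.19 and −0.24). Both scalings remove part of the shift of all genes by construction. Of 912 values for single genes 829 stayed within their counting interval, 77 moved past it and 6, whose interval excluded 0, changed sign. Another 34 with an interval that included 0 changed sign and are among the 829 and the 77; 20 of these came with the scalings. Thinning to 1000 UMIs lowered the Lef1 share of CD8 naive-type cells to 45.2% and 62.8%. At that depth the share was higher in the IPA library, whereas at 2000 UMIs it was slightly higher in the CCl4 library, with overlapping intervals.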
